A study of Macaca mulatta with 36 samples.

Results

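IGSF1, PAQR6, EGFL8, FOXQ1, ADSS1 and TNNT1 are 6 genes with a lower signal in the hippocampus of rhesus macaques with simian immunodeficiency virus encephalitis (SIVE) than in uninfected controls. All probe sets carrying 1 of these symbols and no other were taken, which gave 9 of the 52707 probe sets tested and 6 of the 14132 genes with such a probe set. The genes were picked because their brightest probe sets were lower in SIVE on these same arrays. Their SIVE and control values are therefore given as a description, with no p-value, and the number of their probe sets past the threshold in this contrast is stated only beside the share of all probe sets. Tests were kept for what the choice of the 6 genes did not use. These were the anti-CD8 label, the variation among animals within a group, and the other genes of each pathway or family. The lists of those other genes were drawn up with earlier results of these data known. Their calls are therefore not independent of the SIVE against control contrast.

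Hippocampal total RNA from 18 male macaques was hybridised to Affymetrix rhesus arrays, 2 arrays per animal, and the 2 values of an animal were averaged and counted once. The 9 SIVE animals comprised 4 labelled as given anti-CD8 treatment, all aged 6 years, and 5 without it, aged 2 to 5 years. The 9 uninfected controls comprised 2 labelled as given anti-CD8 treatment, aged 4 and 3 years, and 7 without it, aged 3 to 8 years. The labels name no agent, dose or time for the treatment, and no virus strain or time after infection. All infected animals had encephalitis, so infection and encephalitis cannot be told apart.

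The 6 genes share no pathway. IGSF1 is an X-linked membrane glycoprotein with immunoglobulin-like domains, best known from the pituitary, where its loss causes central hypothyroidism. PAQR6 is a membrane receptor of the progestin and adipoQ family that is found in brain and binds progestins, and EGFL8 is an EGF-like domain protein related to the endothelial factor EGFL7. FOXQ1 is a forkhead transcription factor. ADSS1 is the adenylosuccinate synthase isozyme of muscle, which takes IMP towards AMP in the purine nucleotide cycle, and TNNT1 is troponin T of slow skeletal muscle, the subunit that ties the troponin complex to tropomyosin.

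Signal is given on a log2 scale, on which a difference of 1 is a doubling. The median probe set level was 5.65, and 8 of the 9 probe sets lay above it. The 2 arrays of an animal differed with an SD of 0.0716 for the brighter PAQR6 probe set to 0.166 for the dimmer one. In 3 animals labelled as given anti-CD8 treatment, SIVE 2, SIVE 3 and Control 8, the 3′ probe sets of GAPDH, ACTB and EEF1A1 exceeded their 5′ probe sets by 0.948 to 1.46, against 0.105 to 0.465 in the other 15. Some results are given both with and without those 3 animals. ISG15, an interferon-induced gene, lay at 11.12 to 12.60 in the SIVE animals and at 6.08 to 7.41 in the controls.

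IGSF1 had the lowest SIVE minus control difference of the 6 genes. Its single probe set (MmugDNA.20291.1.S1_at, Entrez gene 704264) read 7.85, 7.29, 7.85 and 7.15 in SIVE 1 to 4, which had the anti-CD8 label. The untreated SIVE 5 to 9 read 7.47, 7.42, 6.84, 7.32 and 7.36. The treated Control 8 and Control 9 read 8.46 and 7.88, and the 7 untreated controls had a lowest value of 8.02, a median of 8.22 and a highest of 8.75. The groups did not overlap, but the gap was narrow: the highest SIVE animals and the lowest control nearly met. The mean was 7.39 ± 0.32 (SD, n = 9) in SIVE and 8.27 ± 0.29 (SD, n = 9) in control, a difference of -0.88 (SE 0.14), which leaves 54.4% of the control signal. IGSF1 ranked 12 from the most negative difference among all 52707 probe sets.

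PAQR6 was lower in all but 1 SIVE animal, which read at a control level. Its brighter probe set (MmuSTS.1096.1.S1_at, Entrez gene 718264) read 9.99, 10.05, 10.56 and 9.78 in the treated SIVE 1 to 4. It read 9.47, 10.14, 9.23, 9.13 and 9.08 in the untreated SIVE 5 to 9. The treated controls read 11.15 and 10.36, and the untreated controls 10.19 at the lowest, 10.52 at the median and 10.74 at the highest. SIVE 3, an animal with high 3′ signal, lay inside the control range, and the other 8 SIVE animals lay below every control. The mean was 9.72 ± 0.52 (SD, n = 9) in SIVE and 10.57 ± 0.28 (SD, n = 9) in control, a difference of -0.86 (SE 0.18), and -0.95 without the 3 animals of high 3′ signal.

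The dimmer PAQR6 probe set (MmugDNA.17242.1.S1_at) went the other way. It lay below the median probe set level, with 4.69 at the lowest, 4.97 at the median and 5.33 at the highest in SIVE, and 4.11, 4.76 and 5.24 at the same points in control. The groups overlapped over most of their range, and the difference was 0.27 (SE 0.12). This probe set did not track the brighter one across animals, with r = -0.42 in SIVE and r = -0.03 in control. The lower PAQR6 signal thus rests on 1 probe set, and which transcripts each of them detects is unknown here.

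EGFL8 was lower by both of its probe sets. The brighter one (MmugDNA.30510.1.S1_at, Entrez gene 717145) read 6.20, 6.95, 6.56 and 6.23 in the treated SIVE 1 to 4. It read 6.59, 6.97, 5.86, 6.45 and 5.41 in the untreated SIVE 5 to 9. The treated controls read 7.97 and 6.87, and the untreated controls 6.62 at the lowest, 7.02 at the median and 7.47 at the highest. SIVE 2 and SIVE 6 lay inside the control range, SIVE 9 was far below it, and Control 8 stood above all others. The mean was 6.36 ± 0.50 (SD, n = 9) in SIVE and 7.10 ± 0.41 (SD, n = 9) in control, a difference of -0.74 (SE 0.20). The dimmer probe set (MmugDNA.11569.1.S1_at) had a lowest, median and highest value of 5.23, 5.85 and 6.25 in SIVE and 6.11, 6.29 and 6.65 in control, a difference of -0.58 (SE 0.12), with 8 of 9 SIVE animals below every control.

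FOXQ1, the transcription factor, was read by 1 probe set (MmugDNA.15888.1.S1_at, Entrez gene 722908). Its signal was 6.91, 7.10, 7.10 and 7.10 in the treated SIVE 1 to 4 and 7.09, 6.74, 6.85, 6.22 and 6.28 in the untreated SIVE 5 to 9. The treated controls read 7.68 and 7.12, and the untreated controls 7.32 at the lowest, 7.58 at the median and 7.86 at the highest. The groups did not overlap, although the treated Control 9 came within the spread of duplicate arrays of the highest SIVE animals. SIVE 8 and SIVE 9 were the lowest. The mean was 6.82 ± 0.35 (SD, n = 9) in SIVE and 7.52 ± 0.23 (SD, n = 9) in control, a difference of -0.70 (SE 0.13).

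ADSS1, the purine cycle enzyme, was spread more widely among the SIVE animals than among the controls. Its probe set (MmugDNA.43402.1.S1_at, Entrez gene 706585) read 6.48, 6.62, 6.78 and 7.06 in the treated SIVE 1 to 4. The untreated SIVE 5 to 9 read 6.39, 6.50, 5.99, 5.98 and 7.38. The treated controls read 7.41 and 7.42, and the untreated controls 7.06 at the lowest, 7.36 at the median and 7.51 at the highest. SIVE 9 stood at the control level, SIVE 4 at the lower edge of the controls, and SIVE 7 and SIVE 8 far below. The mean was 6.57 ± 0.46 (SD, n = 9) in SIVE and 7.32 ± 0.15 (SD, n = 9) in control, a difference of -0.75 (SE 0.15).

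TNNT1, the troponin subunit, overlapped most between the groups by its brighter probe set (MmugDNA.42663.1.S1_at, Entrez gene 698339). That probe set read 7.51, 7.77, 7.28 and 7.32 in the treated SIVE 1 to 4 and 6.75, 6.85, 7.25, 6.99 and 7.60 in the untreated SIVE 5 to 9. The treated controls read 8.60 and 7.36, and the untreated controls 7.65 at the lowest, 8.04 at the median and 9.08 at the highest. SIVE 1, SIVE 2 and SIVE 9 lay inside the control range, whose lowest value came from the treated Control 9 and whose highest came from Control 7. The mean was 7.26 ± 0.34 (SD, n = 9) in SIVE and 8.07 ± 0.52 (SD, n = 9) in control, a difference of -0.81 (SE 0.19). The dimmer TNNT1 probe set (MmugDNA.34881.1.S1_at) separated the groups more cleanly at a smaller size: its lowest, median and highest values were 6.09, 6.25 and 6.51 in SIVE and 6.43, 6.65 and 6.78 in control, a difference of -0.37 (SE 0.06).

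**Figure D1:**
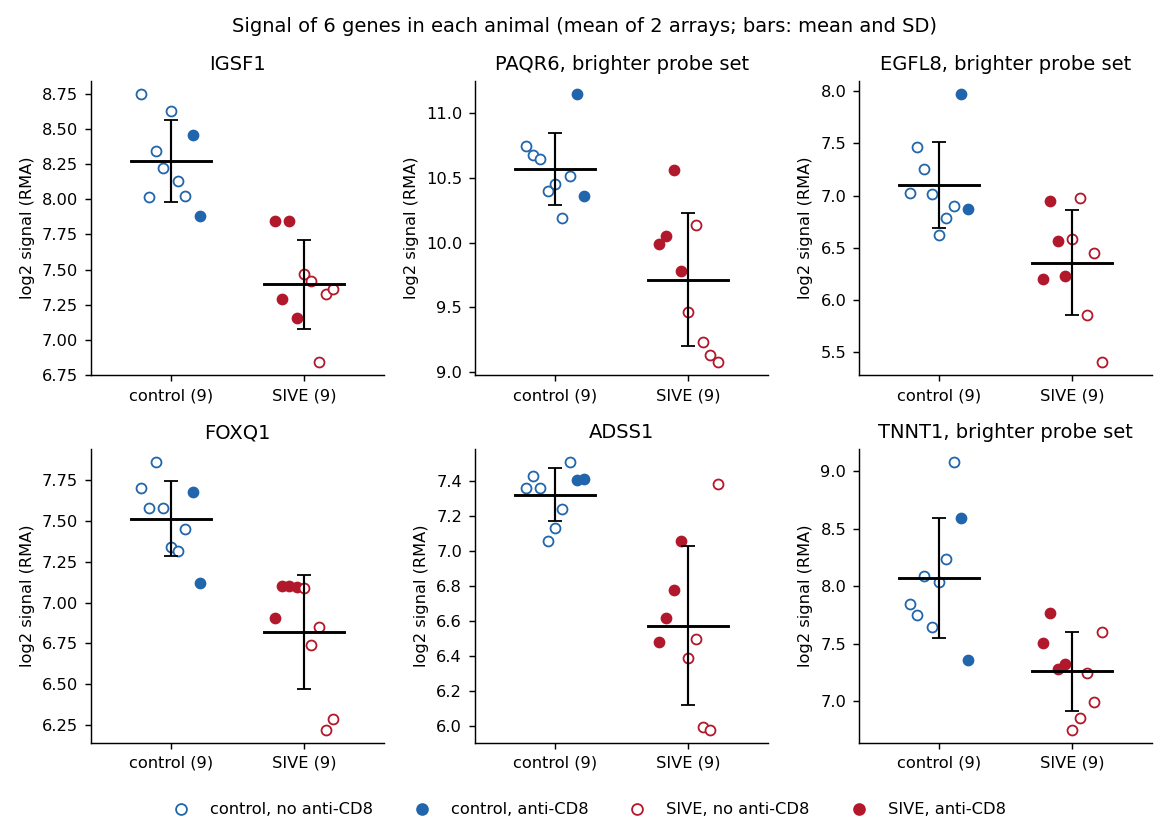
Each panel plots the log2 signal of 1 gene's brightest or only probe set in every control and SIVE animal, with filled points for animals labelled as given anti-CD8 treatment, and bars for the mean and SD. IGSF1 and FOXQ1 show no overlap between the groups, SIVE 3 reaches the control range of PAQR6 at 10.56, and SIVE 9 that of ADSS1 at 7.38.

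Across the 9 probe sets, 8 passed an adjusted p of 0.05 in the direction of lower signal in SIVE (limma, Benjamini-Hochberg over all probe sets), where 1.3% of all probe sets did so. Calls in either direction made up 4.92% of all probe sets, and calls of higher signal 3.63%, a share that includes none of the 9. In 2 of the 9 every SIVE animal lay below every control, as in 0.101% of all probe sets. Nothing can be read from either count, since the genes were chosen from this contrast. The median difference over all probe sets was -0.04. In bulk tissue, fewer cells of a type and less RNA per cell cannot be told apart.

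The SIVE animals did not rank alike for all 6 genes. By the brightest probe sets, SIVE 4, SIVE 5, SIVE 7 and SIVE 8 lay below every control for 6 of 6 genes, SIVE 1, SIVE 3 and SIVE 6 for 5, and SIVE 2 and SIVE 9 for 4. The median difference from the control mean over the 6 genes was least in SIVE 2, at -0.47, and most in SIVE 7, at -1.29. SIVE 9 combined the extremes: its EGFL8 differed from the control mean by -1.69 and its PAQR6 by -1.49, while its ADSS1 differed by 0.06.

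**Figure D2:**
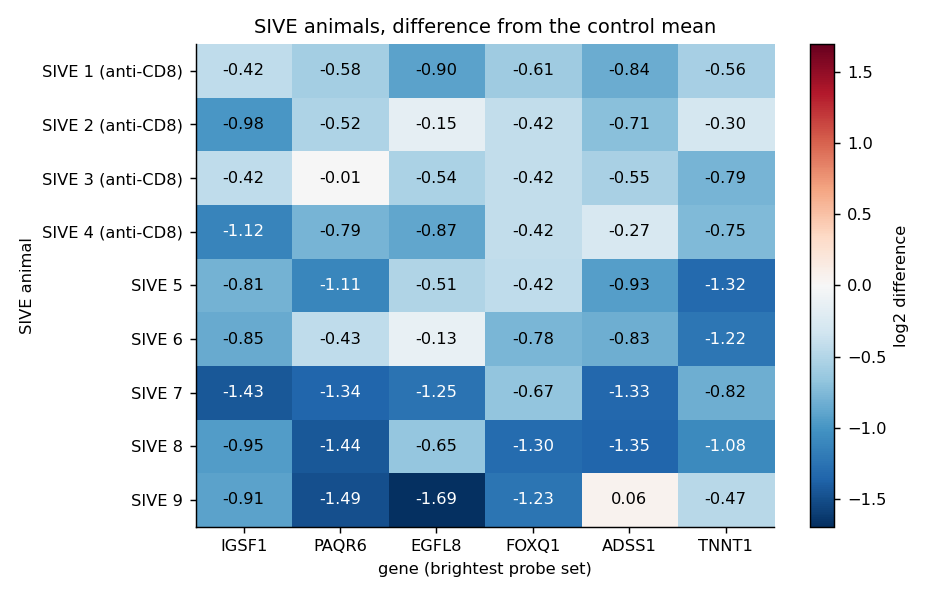
The heat map gives, for each of the 9 SIVE animals (rows) and 6 genes (columns), the log2 difference of the brightest probe set from the mean of the 9 controls. Values run from -1.69 for EGFL8 in SIVE 9 to 0.06 for ADSS1 in the same animal, and SIVE 3 stands at -0.01 for PAQR6.

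Whether the 2 probe sets of a gene follow the same animals was tested within each group, which the choice of genes did not use. For EGFL8 they did by r in both groups and by rank in SIVE: r was 0.86 in SIVE (exact permutation p = 0.00271, adjusted p = 0.00812 over 6 relations; rho = 0.85, exact permutation p = 0.00607, adjusted p = 0.0364). In control r was 0.87 (exact permutation p = 0.0017, adjusted p = 0.00812; rho = 0.70, exact permutation p = 0.0433, adjusted p = 0.13), so the rank correlation did not pass there. Without the 2 animals farthest from the median, r was 0.70 in SIVE and 0.58 in control. Of the 3 genes with 2 probe sets, EGFL8 had the only relation that passed. For TNNT1 the relation was weak in both groups, with r = 0.19 in SIVE and r = 0.04 in control, and it did not pass; without the 2 animals farthest from the median r was -0.46 in SIVE and 0.62 in control.

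**Figure D3:**
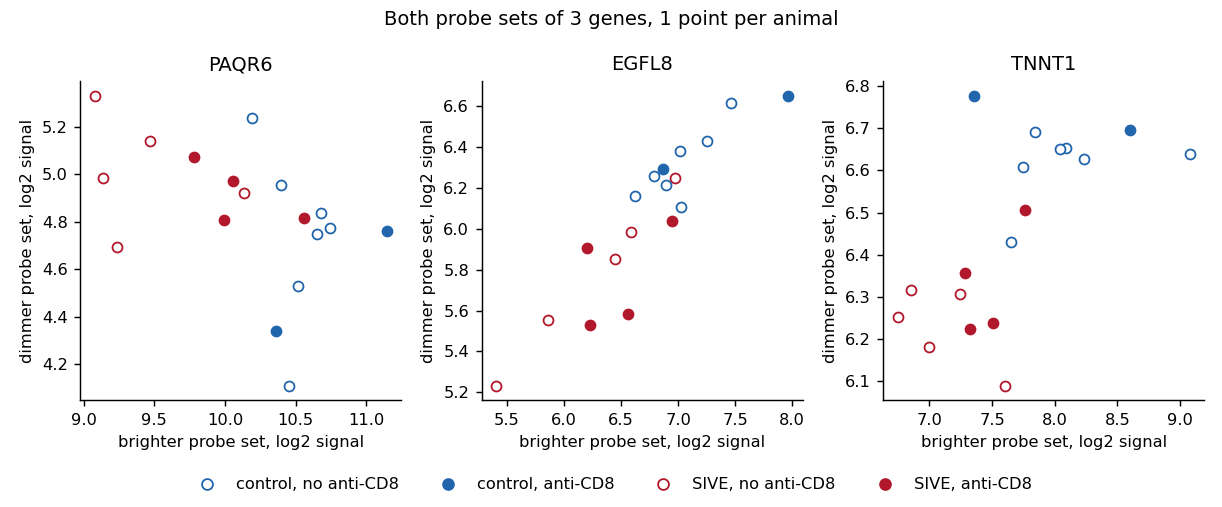
For PAQR6, EGFL8 and TNNT1, the log2 signal of the dimmer probe set is plotted against that of the brighter one, with 1 point per animal and filled points for the anti-CD8 label. The EGFL8 points line up within both groups (r = 0.86 in SIVE and 0.87 in control), and those of PAQR6 and TNNT1 do not.

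The 6 genes were also compared with each other over the 9 animals of a group, 15 pairs in each group and 30 in all, by exact permutation of pairings. None passed after adjustment over the 30, and at an unadjusted p under 0.05 there were 0 pairs in SIVE by r or rho. In control there were 1 by r and 3 by rho, the latter being PAQR6 with EGFL8, PAQR6 with FOXQ1 and EGFL8 with FOXQ1. The coefficients were positive for 13 of 15 pairs in SIVE (median r 0.17) and 14 of 15 in control (median r 0.36). The highest was PAQR6 with EGFL8 in control, at r = 0.87 (exact permutation p = 0.00414, adjusted p = 0.124; rho = 0.82, exact permutation p = 0.0108, adjusted p = 0.138), which was 0.62 without Control 6 and Control 8. The same pair had r = 0.63 in SIVE. In SIVE the highest was PAQR6 with FOXQ1, at r = 0.66. Without the 3 animals of high 3′ signal, 10 of 15 coefficients were positive in SIVE (median r 0.07, lowest -0.83). In control 11 of 15 were then positive (median r 0.31, lowest -0.40). In that setting 1 pair in each group had an unadjusted p under 0.05 by r, and 0 passed after adjustment.

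Relations to the interferon response and to the 3′ minus 5′ difference formed a family of 18, tested by exact permutation, of which 0 passed after adjustment and 3 had an unadjusted p under 0.05 by Pearson's r (1 by Spearman's rho, IGSF1 with the 3′ minus 5′ difference in control, rho = 0.83). FOXQ1 with ISG15 in SIVE had r = 0.66 (exact permutation p = 0.0456, adjusted p = 0.274), but rho was 0.33 and r was 0.47 without SIVE 1 and SIVE 8. PAQR6 in control had r = 0.83 with the 3′ minus 5′ difference (exact permutation p = 0.00727, adjusted p = 0.131; rho = 0.60, exact permutation p = 0.0968), and this rested on Control 1 and Control 8, without which r was 0.25. EGFL8 in control had r = 0.79 (exact permutation p = 0.0445, adjusted p = 0.274; rho = 0.45), and 0.08 without the same animals. Control 8 held the highest PAQR6 and EGFL8 values and the highest 3′ minus 5′ difference, and the part of the latter in the former was not tested.

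The anti-CD8 label was the other variable of the design. Treated and untreated SIVE animals were compared in a limma fit over all 18 animals with 1 mean for each combination of group and label. None of the 9 probe sets passed in this comparison, where 0.0019% of all probe sets did (1 of 52707). At an unadjusted p under 0.05 there were 2 of 9, PAQR6 and FOXQ1, against 15.3% of all probe sets. All 6 genes had a higher mean in the treated SIVE animals by their brightest probe sets. Over all probe sets of the 6 genes it was 7 of 9, with the dimmer PAQR6 (-0.10) and EGFL8 (-0.01) probe sets lower. The median of this difference over all 52707 probe sets was 0.03. The share of them with a higher mean was not counted, so nothing is read from these counts. Age, anti-CD8 label and, for SIVE 2 and SIVE 3, high 3′ signal ran together in the treated animals.

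PAQR6 showed the widest distance by label: its brighter probe set had a mean of 10.10 in the 4 treated and 9.41 in the 5 untreated SIVE animals, a difference of 0.69 (95% interval 0.24 to 1.13; limma adjusted p = 0.304). The values overlapped, since the untreated SIVE 6 at 10.14 exceeded 3 of the 4 treated animals. Entering every array with the animal as a random block gave an adjusted p of 0.0184 (limma) for the same difference. That fit used the same correlation of duplicates for every probe set and took its degrees of freedom from the arrays. The arrays of an animal thus counted in part as replicates. Without the 3 animals of high 3′ signal the difference was 0.48, with an adjusted p of 1.0. FOXQ1 had 7.05 in treated and 6.64 in untreated SIVE animals, a difference of 0.41 (95% interval 0.06 to 0.77; limma adjusted p = 0.308).

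For the other 4 genes the interval of the difference within SIVE covered 0. It was 0.25 (-0.15 to 0.66) for IGSF1, 0.23 (-0.37 to 0.83) for EGFL8, 0.29 (-0.16 to 0.74) for ADSS1 and 0.38 (-0.20 to 0.96) for TNNT1. These intervals do not show that treated and untreated animals were alike: the narrowest still reaches 0.66.

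Among the controls, with only 2 treated animals, 0 of 9 probe sets passed (0% of all probe sets did in the limma fit, and 15.7% had an unadjusted p under 0.05, as did 0 of the 9). The differences, treated minus untreated, ran from -0.19 for the dimmer PAQR6 probe set to 0.41 for the brighter EGFL8 probe set. By the brighter probe sets of EGFL8 and TNNT1, Control 8 and Control 9 disagreed by over 1 on the log2 scale. For those probe sets the treated control mean describes neither animal. By the dimmer probe sets the same animals read 6.65 and 6.29 for EGFL8, and 6.70 and 6.78 for TNNT1.

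By the brightest probe sets the means were lower in SIVE under both labels, from the same contrast that chose the genes. The dimmer PAQR6 probe set was higher in SIVE, by 0.27 among untreated and 0.37 among treated animals. The values below are those of the brightest probe sets. Among untreated animals the difference was -1.02 for IGSF1, -1.11 for PAQR6, -0.76 for EGFL8, -0.91 for FOXQ1, -0.85 for ADSS1 and -1.01 for TNNT1. Among treated animals it was -0.64, -0.66, -0.93, -0.35, -0.68 and -0.51 in the same order of genes. The test of the difference between these effects passed for 0 of 9 probe sets and 0% of all probe sets (limma); 1 of 9, FOXQ1, had an unadjusted p under 0.05, at 0.56 (95% interval 0.01 to 1.11), against 2.81% of all probe sets. No gene was shown to differ by label in its SIVE effect.

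**Figure D4:**
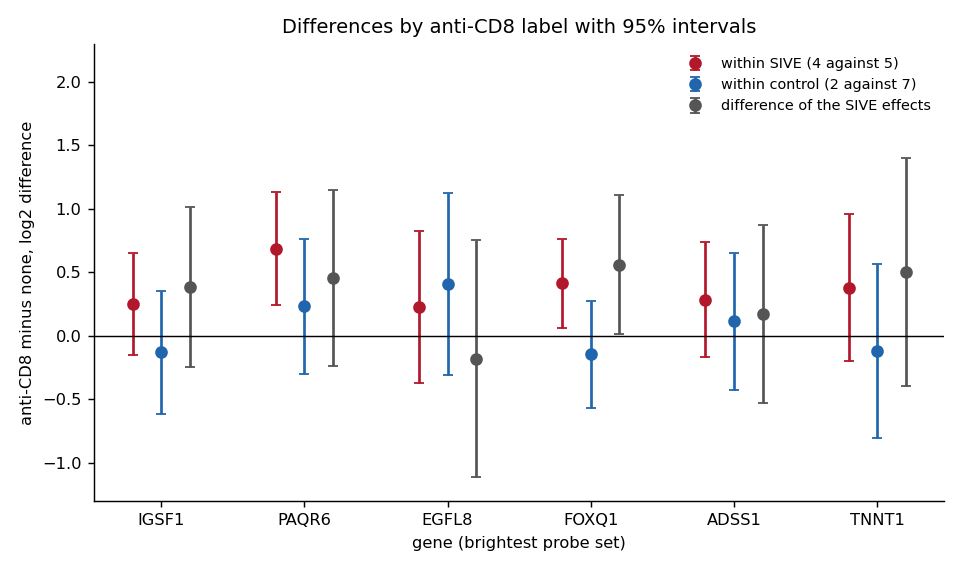
Points give the log2 difference between animals with and without the anti-CD8 label for the brightest probe set of each gene, within SIVE and within control, and the difference between the 2 SIVE effects, with 95% intervals as bars. Only PAQR6 and FOXQ1 within SIVE, and FOXQ1 in the difference of effects, have intervals that leave out 0, and none passed after adjustment over all probe sets.

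Most genes of the pathways and families of these 6 did not pass in SIVE against control. Over 8 lists of pathway, complex or family members, 135 genes were measured, and 8 passed in SIVE against control (limma, adjusted over all probe sets), 4 higher and 4 lower. That is 5.93%, against 4.92% of all probe sets, and the median difference was -0.06 against -0.04. An unadjusted p under 0.05 (limma) was reached by 9 of 24 purine, 8 of 20 troponin and filament, and 6 of 20 EGF-like genes. The share of all probe sets at that unadjusted threshold in this contrast was not counted. No unadjusted count given for a list, here or below, can therefore be called many or few.

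The troponin and filament list, drawn up for TNNT1, held 4 of the 8. Of 20 measured genes of the troponins and of the thin and thick filaments, 3 fell and 1 rose, with a list median of -0.15. TPM2, a tropomyosin, fell by 0.49 (SE 0.10, limma adjusted p = 0.00513), TNNI3, cardiac troponin I, by 0.26 (SE 0.07, adjusted p = 0.0415), and MYL3, a myosin light chain, by 0.24 (SE 0.06, adjusted p = 0.0279). TPM3, another tropomyosin, which is broadly expressed outside muscle, rose by 0.22 (SE 0.04, adjusted p = 0.00535). TNNI3 missed the threshold when any 1 of 12 animals was left out, and MYL3 when any 1 of 5 was. TPM2 and TPM3 passed in all 18 such fits but not when all probe sets of the gene were averaged. TPM3 also did not pass with the second arrays alone or with the replicate number as a block. In 12 other settings of the analysis, TNNI3 missed the threshold in 4 and MYL3 in 3. The other troponin T genes did not pass: TNNT2 was at -0.50 (adjusted p = 0.247) and TNNT3 at -0.23 (adjusted p = 0.0837). Nor did TNNI1, a troponin I gene, at -0.12 (adjusted p = 0.354), or TNNC1, a troponin C gene, at -0.24 (adjusted p = 0.284).

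Among 24 measured purine nucleotide enzymes, the pathway of ADSS1, 2 rose and 1 fell, with a median of 0.01. GMPS, which makes GMP from XMP, rose by 0.20 (SE 0.05, limma adjusted p = 0.0296), and GART, a multifunctional enzyme of purine synthesis, rose by 0.34 (SE 0.09, adjusted p = 0.0349). AMPD2, the AMP deaminase that runs in the same cycle as ADSS1, fell by 0.34 (SE 0.10, adjusted p = 0.042). GMPS and GART each missed the threshold without any 1 of 8 animals, and AMPD2 without any 1 of 10. In 12 other settings of the analysis GMPS missed it in 3, and GART and AMPD2 in 4 each. With all its probe sets averaged, GART was at 0.20 (limma adjusted p = 0.0859). ADSS2, the widely expressed isozyme of ADSS1, was read by 6 probe sets that differed by -0.12 to 0.20, and none passed.

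The families of the other 4 genes held a single call. EGF, the epidermal growth factor, rose by 0.32 (SE 0.08, limma adjusted p = 0.0171) at a level below the median probe set, among 20 EGF-like domain genes with a median of -0.12, and DLK2 (-0.25, adjusted p = 0.0543) did not pass. None of 27 forkhead genes passed (5 had an unadjusted p under 0.05 in limma; median -0.07), with FOXD3 at -0.16 and FOXM1 at 0.24. None of 11 progestin and adipoQ receptor genes passed (1 unadjusted; median 0.10), with PAQR5 at -0.15 and PAQR4 at 0.31. Likewise none of 9 IGSF genes (0 unadjusted; median -0.10, with IGSF21 at -0.25 and IGSF9 at -0.18), 11 thyroid axis genes (1 unadjusted; median -0.04, with DIO2 at -0.18 and IRS4 at -0.13) or 13 genes of the MHC class III region, where EGFL8 lies (0 unadjusted; median -0.04, with AGER at -0.23 and PRRT1 at -0.20), passed.

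**Figure D5:**
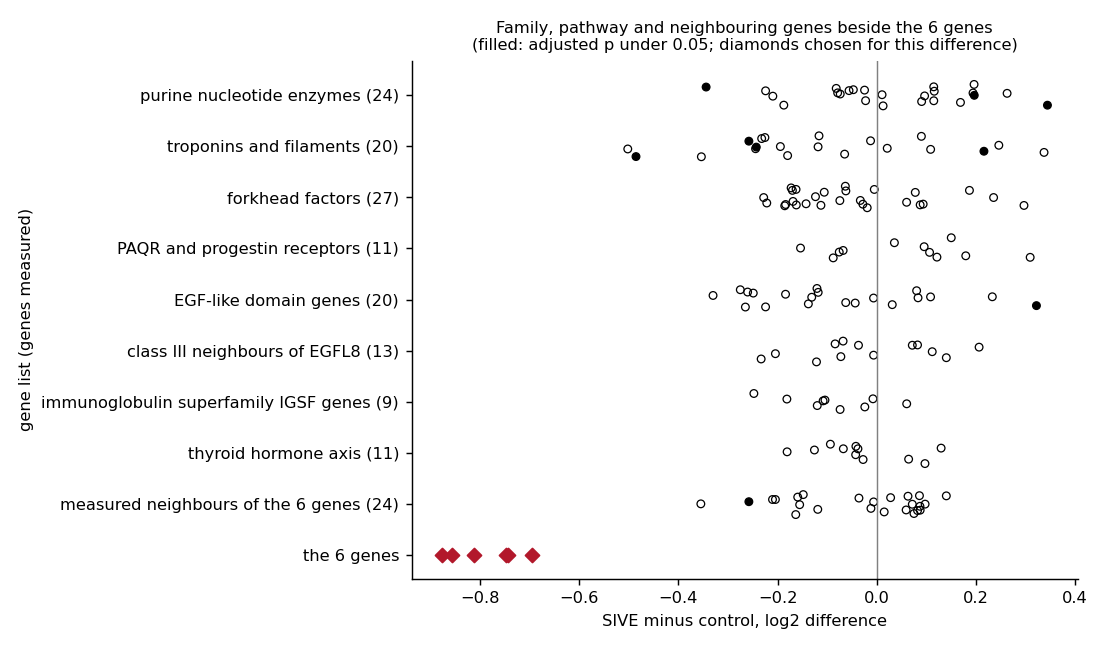
Each circle is the SIVE minus control log2 difference (horizontal axis) of 1 gene of a list or 1 chromosomal neighbour (rows, with the number of genes measured), filled where it passed, and the diamonds in the bottom row are the 6 genes, chosen for this difference. The 6 genes lie between -0.88 and -0.70, lower than every list gene, of which TNNT2 at -0.50 is the lowest.

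Genes near the 6 on the chromosomes, by gene order in RefSeq's rhesus assembly T2T-MMU8v2.0, were looked up after the values were seen. The nearest measured ones were taken, which lay 1 to 6 protein-coding genes away. Of 24 measured neighbours, 0 passed higher and 1 passed lower, and their median difference was 0.00. The 1 that passed was TNNI3, 2 genes from TNNT1. BGLAP, beside PAQR6, missed the threshold at -0.35 (limma adjusted p = 0.0503). EGFL8's neighbours AGPAT1 and PPT2 were at 0.14 and 0.08, FOXQ1's neighbour FOXF2 at 0.09, ADSS1's neighbour SIVA1 at 0.01 and IGSF1's neighbour ARHGAP36 at 0.06.

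Cell type markers were read beside these genes, and their part in the 6 differences was not tested. Of the dentate granule and pyramidal cell list, 5 of 6 measured genes reached the median level, and TDO2 lay at 3.09. The list mean was 7.86 to 8.22 in SIVE and 7.87 to 8.24 in control. None of these genes passed in SIVE against control (0 at an unadjusted limma p under 0.05). No other brain region was measured, so these levels do not show the region. Of the skeletal muscle list, the tissue in which ADSS1 and TNNT1 are best known, 2 of 6 genes reached the median level (list mean 5.84 to 6.02 in SIVE and 5.90 to 6.21 in control), and none passed (2 unadjusted). The 2 unadjusted genes were TNNC2 at -0.19 and CKM at -0.18. CKM had a level of 10.20, far above the list mean, and TNNC2 one of 6.58. Pituitary genes, the tissue of IGSF1, were low in all animals, with 1 of 5 at the median level (4.03 to 4.19 in SIVE and 4.04 to 4.32 in control), and none passed (1 unadjusted).

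Markers of brain cells that did pass went in both directions. Of 4 oligodendrocyte genes measured, MBP fell by 0.32 (limma adjusted p = 0.00897) and UGT8 by 0.58 (adjusted p = 0.0173), with list means of 10.29 to 10.91 in SIVE and 10.38 to 10.80 in control. CNP at 0.06 and MYRF at 0.07 did not pass. Of 8 astrocyte genes, the glutamate transporter SLC1A2 fell by 0.52 (adjusted p = 0.00613) and the filament gene GFAP rose by 0.36 (adjusted p = 0.0129), with list means of 10.60 to 10.90 and 10.58 to 10.97. Of 4 neuronal genes, the tubulin TUBB3 fell by 0.51 (adjusted p = 0.0118), with list means of 10.12 to 10.59 and 10.09 to 10.87. STMN2 at -0.22, SYT1 at -0.06 and ENO2 at 0.16 did not pass. None of 6 oligodendrocyte precursor genes passed (2 unadjusted), at a list median of -0.31, with list means of 7.42 to 7.74 in SIVE and 7.57 to 8.06 in control.

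Immune and vessel markers went up where they passed. Of 9 microglia and macrophage genes, PTPRC rose by 1.52 and AIF1 by 0.83, with list means of 7.34 to 8.09 in SIVE and 7.46 to 7.80 in control. The other 7 did not pass and went both ways, from P2RY12 at -0.44 to CSF1R at 0.45, and the list median was -0.10. Of 8 endothelial and pericyte genes 3 rose, among them PECAM1 by 0.83, with list means of 7.08 to 7.91 and 6.86 to 7.62, and of 5 T cell and cytotoxic genes 1 rose (6.21 to 7.15 and 5.90 to 6.53). None of the fibroblast, choroid plexus or red blood cell genes passed (6, 6 and 4 measured, of which 0, 0 and 1 unadjusted).

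Finally, each gene was set against 9415 named genes at or above the median level by the correlation, over 18 animals, of the deviations from the group means. These are descriptions of 1 set of arrays that share their normalization, and carry no test. PAQR6 was most like HTRA1, a secreted serine protease (r = 0.90), PACSIN3, an endocytosis adaptor (r = 0.90), and MZT2B (r = 0.90). EGFL8 was most like NCS1, a neuronal calcium sensor (r = 0.90), FAM181B (r = 0.87) and CREB3L1 (r = 0.87).

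FOXQ1 was most like RGS19, a regulator of G protein signalling (r = 0.88), NINJ1, a protein of plasma membrane rupture (r = 0.86), and UNC93B1, which carries Toll-like receptors to endosomes (r = 0.82). The likeness is within groups, since UNC93B1 had a mean of 8.03 ± 0.75 (SD, n = 9) in SIVE and 6.26 ± 0.37 (SD, n = 9) in control, opposite to FOXQ1. ADSS1 was most like RBSN (r = 0.89), ZNF7 (r = 0.89) and the histone deacetylase HDAC3 (r = 0.83). In SIVE alone these were 0.97, 0.93 and 0.97, and in control alone 0.42, 0.65 and 0.69. Closest to TNNT1 were FBXO15 (r = 0.82), PARM1 (r = 0.82) and PKNOX2 (r = 0.80). In SIVE alone these were 0.55, 0.62 and 0.55, and in control alone 0.92, 0.90 and 0.89. IGSF1 had the weakest likeness, with RASL12 at r = 0.73, CENATAC at r = 0.72 and PLXNB3, a plexin, at r = 0.70.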

How the data were processed

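The deposited values are log2 signals made by the authors with RMA, per the submitters' processing notes; the log2 scale was read from their range, which ends at 14.49. RMA corrects background, normalizes between arrays and summarises probes. The sources used here do not state its version, or whether the 2 arrays of an animal used separate tissue. Of 52865 probe sets, 158 control and reporter sets were left out. Gene names came from GEO's platform annotation. Arrays give no counts, so their number limits the precision.

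The 2 arrays of an animal were averaged. Linear models came from limma 3.58.1 (R 4.3.3), moderated with eBayes. Two-sided p-values were adjusted by Benjamini-Hochberg across 52707 probe sets, and 0.05 was the threshold. Correlations used exact two-sided permutation of 9 animals in Python 3.11.15 with scipy 1.17.1. List genes were read by their brightest probe set. Replicate numbers were checked and do not pair the animals. On simulated data, the fit recovered 94.0% of 2-fold differences for SIVE against control and 85.1% for anti-CD8 within SIVE. Of 1.5-fold differences it recovered 80.6% and 53.7% in these comparisons. For anti-CD8 within control it recovered 35.8% of them, and for the difference of effects 16.4%. The simulated noise was independent between probe sets, so noise that probe sets share was not covered. Named genes were all probe sets of the 6 genes, list genes that passed or the 2 of smallest adjusted p, ISG15, and the 3 most alike genes; other markers and neighbours were named after their values were seen. The members and lists were chosen with earlier results of these data known.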

Additional observations from a re-analysis of the deposited data

Results flagged for a closer look

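Each of the 18 combinations of a probe set and a group was searched for an animal far from the other 8, and 1 was found. By the dimmer TNNT1 probe set, Control 4 read 6.43, below the other controls, which began at 6.61. Chance alone flags about 1 in 20 such groups. The brighter TNNT1 probe set read 7.65 in the same animal, inside the range of the other controls.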

How the results depend on the processing

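The lower signal of the 6 genes kept its direction for every brightest probe set under all alternatives run, and the count of probe sets past the threshold in that direction, a description of the contrast that chose them, stayed at 7 to 8 of 9 when single animals were left out. It was 5 of 6 genes when all probe sets of a gene were averaged, since PAQR6 was then at -0.29. With the replicate number as a block, 7 of 9 passed, and the brighter TNNT1 probe set did not. The replicate numbers do not pair the animals: the deviations of same-numbered animals correlated at -0.49 to 0.09. The brighter EGFL8 probe set did not pass without any 1 of 10 animals.

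Within SIVE, 1 probe set passed for the anti-CD8 label, PAQR6, with every array entered and the animal as a random block, and 0 otherwise. The list genes that passed, 8 in the fit described, were 13 with the first arrays, 3 with the second arrays, 2 with the replicate block, 16 with the 3′ minus 5′ difference as a covariate, 16 without the 3 animals of high 3′ signal, 20 with the anti-CD8 label as a covariate, and 3 to 11 with single animals left out; without SIVE 9 or Control 4 they were 3, without SIVE 5 or SIVE 7 they were 4, and without SIVE 8, Control 3 or Control 5 they were 5.

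Anti-CD8 differences that did not pass changed sign in places. With the replicate block, EGFL8 within SIVE was -0.41, FOXQ1 within SIVE -0.15, FOXQ1 within control 0.67, ADSS1 within control -0.27, and the difference of effects -0.61 for PAQR6 and -0.82 for FOXQ1. Without the 3 animals of high 3′ signal, EGFL8 within SIVE was -0.041, PAQR6 and EGFL8 within control were -0.16 and -0.14, and the difference of effects for EGFL8 was 0.10. PAQR6 within control was -0.013 with the 3′ minus 5′ covariate. ADSS1 within control was -0.048 with the second arrays. TNNT1 within control was 0.011 with the first arrays, 0.061 with age as a covariate and 0.0013 with all probe sets averaged, and the difference of effects for EGFL8 was 0.076 with age. Leaving out single animals, values within control ran from -0.42 to 0.16 for IGSF1, -0.16 to 0.63 for PAQR6, -0.14 to 0.96 for EGFL8, -0.43 to 0.13 for FOXQ1 and -0.74 to 0.50 for TNNT1, and the differences of effects from -0.73 to 0.37 for EGFL8 and -0.12 to 1.12 for TNNT1. The cause was not tested. The comparisons within control rest on 2 treated animals. The planned search of promoters for motifs was not run.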
